A study of Mus musculus with 6 samples.

Results

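The organisation of the cristae, the folds of the inner mitochondrial membrane, was followed at the RNA level through 8 genes, Chchd2, Chchd10, Chchd3, Chchd6, Immt, Apoo, Apool and Samm50, of the 53110 genes in the table of neural stem cells (NSCs) grown at 21% O2. All 8 were found by their symbol. They were chosen with the comparison of the genotypes in view, so their values are given as a description, with no test. The cells were primary NSCs from the cortex of mouse embryos, grown attached to Matrigel in medium with bFGF and EGF. One group was wild type (WT) and the other was heterozygous for a mutation of Setd5 made by CRISPR-Cas9, written Setd5 +/-, and no other allele or treatment separated them in the labels. Setd5 encodes a chromatin-associated protein whose loss of 1 copy is a cause of intellectual disability and autism. The labels list 3 samples per genotype. These 3 differed by no more than sampling noise and carried the same index and lane in their names, so they were read as parts of 1 library, and n is 1 library per genotype. The mutant samples bear the name of a single clone, A3, which is none of the mutant clones that the study's text names, and their columns were assigned to Setd5 +/- because the other 3 are named as wild type. The lane in the names also differed between the genotypes, so genotype, clone, library and lane cannot be told apart.

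The values are normalized counts, which are the reads counted on a gene divided by a size factor for the sample. The WT parts held 10004948, 9995980 and 10003706 reads on genes and the Setd5 +/- parts 7146090, 7146147 and 7143309. One read was worth between 0.827 and 0.829 normalized counts in the WT parts and 1.19 in the Setd5 +/- parts. Setd5 itself stood at 2498, 2749 and 2780 normalized counts in the WT parts and at 2151, 1990 and 2055 in the Setd5 +/- parts, a log2 fold of -0.37. Of 9 neural stem cell markers all were compared, 5 were lower and 4 higher in value, with Sox2, Nes and Slc1a3 abundant in both libraries, Fabp7 (36015 to 11490 normalized counts) and Hes1 (476 to 224) called lower, which means by 1.5-fold or more, and Vim (9095 to 13822) called higher. Their summed level lay between 74334 and 74494 in the WT parts and between 53715 and 54411 in the Setd5 +/- parts. Fabp7 alone fell by more than this sum did, and the other markers together were higher in Setd5 +/- only through Vim. Of those not called, Nes (2378 to 1951), Sox2 (3119 to 2732) and Msi1 (743 to 628) were lower in value. Pax6 (402 to 530), Hes5 (1222 to 1650) and Slc1a3 (20983 to 21117) were higher in value. The microglial genes Cx3cr1, Ptprc and C1qa and the mesenchymal gene Lum were at 0 in both libraries. Markers of other cell types differed between them too. The summed level of 6 neuronal genes lay between 383 and 414 normalized counts in the WT parts and between 81.0 and 90.5 in the Setd5 +/- parts, with Neurod6 at 0 in both, and that of 6 oligodendrocyte lineage genes lay between 40197 and 41063 and between 22248 and 23073. The sum of 5 astrocyte genes lay between 2412 and 2490 in WT and between 2722 and 2902 in Setd5 +/-, but its members went in opposite directions, with Gfap (17.1 to 263), Aqp4 (57.7 to 187) and S100b (339 to 737) called higher, Aldh1l1 (380 to 147) called lower and Gja1, the most abundant, at 1666 and 1507. The sums of 5 mesenchymal genes stayed at or under 14.3 in every part. Those of 4 endothelial genes lay between 6.63 and 9.93 in WT and between 10.7 and 26.2 in Setd5 +/-. Of these 4, only Kdr (6.35 to 17.9) was compared, and it was called higher. The 5 microglial genes, of which Csf1r carried nearly all reads, summed to between 78.6 and 116.9 in WT and between 48.9 and 70.3 in Setd5 +/-. In these bulk cultures fewer cells of a type and less RNA per cell cannot be told apart, and the part of these markers in the values of the cristae genes was not tested.

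As background, the inner mitochondrial membrane is folded into cristae, which open to the rest of the intermembrane space through narrow necks called crista junctions. The junctions are held by the mitochondrial contact site and cristae organising system (MICOS), a complex of membrane proteins. This complex also bridges to the sorting and assembly machinery (SAM) of the outer membrane. MICOS has one subcomplex around MIC60, the product of Immt, with MIC19 (Chchd3) and MIC25 (Chchd6), and another around MIC10 (Minos1) with MIC26 (Apoo) and MIC27 (Apool). CHCHD proteins carry pairs of cysteines spaced by 9 residues (CX9C), which the import receptor of the intermembrane space oxidises to disulfide bonds. Chchd2 and Chchd10 encode paralogous CHCHD proteins, and variants of their human counterparts cause inherited Parkinson disease and motor neuron disease or myopathy, respectively.

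The sequences around the start sites are shown first for the gene with the lowest fold, Chchd10, for the only other gene called lower, Samm50, and for 2 MICOS core genes, Immt and Chchd3, whose folds were smaller. Of the 8 genes, 7 had an entry in the RefSeq promoter table (GRCm38.p6, 250 bases before to 50 after the start), with 2 starts for Apoo, and Chchd2 had none. The lines below are written 5' to 3' on the strand of the gene. Capitals mark the letters of 6 motifs searched on both strands, which were chosen after these sequences were read. They are GCGCNNGCG (NRF1), CCGGAAG (GABP, of the ETS family), ACTACAANT (ZNF143), ATGGCGGC (YY1), CCAAT (the CCAAT box) and TGATGNAAN (the C/EBP-ATF response element, CARE), and the only matches that overlapped were 2 of NRF1 in Immt, 1 on each strand and offset by 1 base.
Chchd10 (chr10:75932880-75933179, plus strand): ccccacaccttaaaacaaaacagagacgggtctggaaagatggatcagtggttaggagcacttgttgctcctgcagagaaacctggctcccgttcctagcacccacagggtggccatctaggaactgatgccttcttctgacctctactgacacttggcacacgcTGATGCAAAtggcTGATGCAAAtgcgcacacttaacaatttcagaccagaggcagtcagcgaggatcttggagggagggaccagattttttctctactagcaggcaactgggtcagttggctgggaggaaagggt
Samm50 (chr15:84191990-84192289, plus strand): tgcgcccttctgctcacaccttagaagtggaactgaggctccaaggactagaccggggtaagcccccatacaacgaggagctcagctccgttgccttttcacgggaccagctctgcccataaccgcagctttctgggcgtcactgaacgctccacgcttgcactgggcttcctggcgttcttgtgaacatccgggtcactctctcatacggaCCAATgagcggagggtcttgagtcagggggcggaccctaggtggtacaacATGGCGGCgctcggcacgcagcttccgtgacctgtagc
Immt (chr6:71831070-71831369, plus strand): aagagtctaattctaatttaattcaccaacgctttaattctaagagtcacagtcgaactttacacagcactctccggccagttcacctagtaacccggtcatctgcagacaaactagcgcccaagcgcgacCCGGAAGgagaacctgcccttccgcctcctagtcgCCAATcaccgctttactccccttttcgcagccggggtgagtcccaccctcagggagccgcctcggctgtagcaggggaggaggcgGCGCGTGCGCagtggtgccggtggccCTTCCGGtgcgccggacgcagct
Chchd3 (chr6:33060211-33060510, minus strand): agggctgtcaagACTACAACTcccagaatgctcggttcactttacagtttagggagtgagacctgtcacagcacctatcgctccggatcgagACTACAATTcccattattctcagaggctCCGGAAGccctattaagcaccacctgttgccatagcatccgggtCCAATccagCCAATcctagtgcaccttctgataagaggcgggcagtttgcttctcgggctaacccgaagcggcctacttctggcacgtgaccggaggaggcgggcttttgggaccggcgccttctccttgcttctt

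The Chchd10 promoter held TGATGCAAA at 2 places, starting 85 and 72 bases before the start site, and none of the other 5 motifs. CARE letters were in 3.96% of the 32817 promoters of that length. The promoter also held 5 CpG, with a median of 7 over all promoters, and 43.6% of promoters had that number or fewer. Its GC content was 52.0% against a median of 52.7%. Chchd3, by contrast, held the ZNF143 letters at 2 places (1.49% of promoters hold them) along with 1 GABP and 2 CCAAT sites, and Chchd6 held 1 ZNF143 and 2 CCAAT sites. Immt held the overlapping NRF1 matches (12.1% of promoters hold 1 or more), 2 GABP sites (8.86%) and 1 CCAAT site (37.4%). Samm50 held 1 YY1 site (2.24%) and 1 CCAAT site, Apool held 2 CCAAT sites, and Apoo held 1 NRF1 match, the same letters for both starts. The CpG counts of these 6 genes were 15 for Chchd3, 13 for Chchd6, 24 for Immt, 19 for Samm50, 10 for Apool and 24 for each start of Apoo. A match of letters is a description and says nothing of binding.

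All 8 genes had a lower mean in Setd5 +/- than in WT cells. Only genes that averaged 10 or more normalized counts over the 6 samples were compared, 16266 in all, which left 7 of the 8 genes and set aside Apoo. A gene was called lower or higher where its mean differed by at least 1.5-fold and the 95% counting interval of the fold did not hold 1. By this rule Chchd10 and Samm50 were called lower, 2 of 7, and none was called higher, while 14.7% of all compared genes were called lower and 18.6% higher. At 2-fold, Chchd10 alone was called lower and none higher, beside 6.28% lower and 10.5% higher among all compared genes. The 3 Setd5 +/- parts lay under all 3 WT parts in 5 of the 7 compared genes, as they did in 32.9% of all compared genes, and in none did they lie over all WT parts, as they did in 32.4% of all. The median log2 fold of the 7 was -0.43 and that of all compared genes -0.02, with 8313 lower and 7953 higher. Each interval here covers counting error of read pairs and nothing of the difference between cultures or clones.

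**Figure D1:**
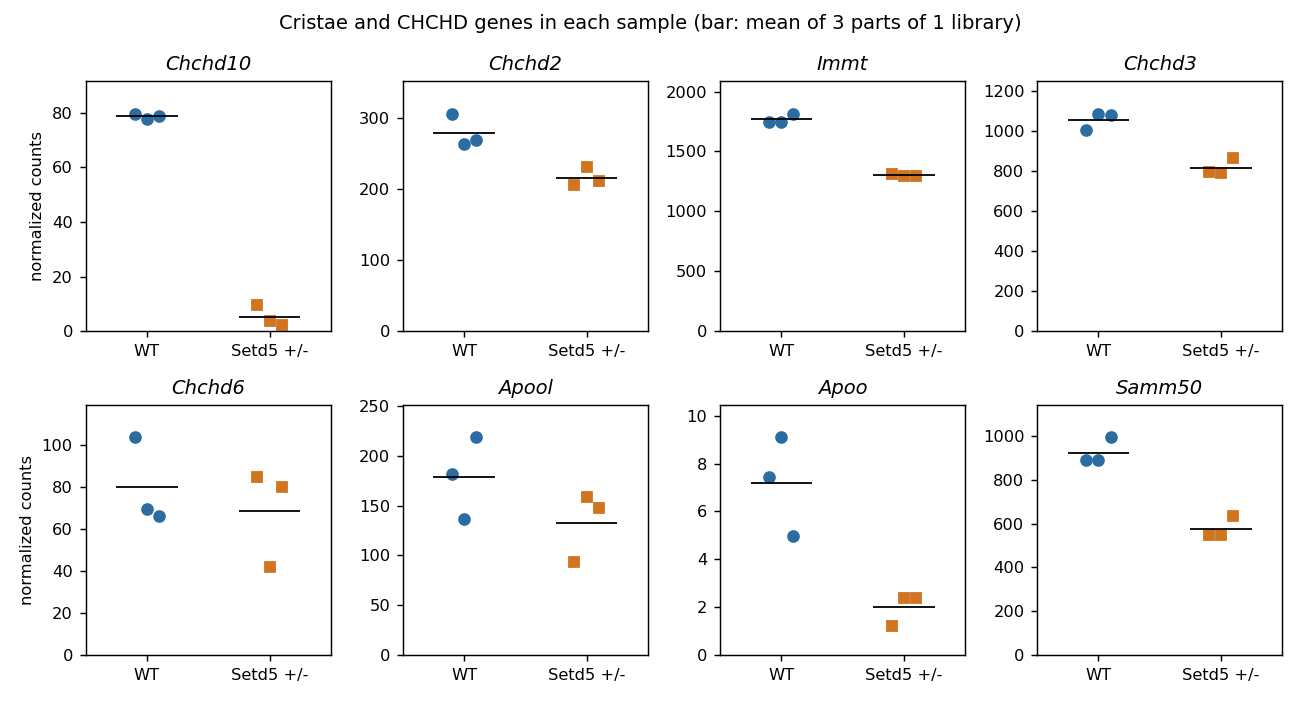
Normalized counts (vertical axis, from 0, on a scale of its own in each panel) of the 8 genes in the 3 WT samples (blue circles) and the 3 Setd5 +/- samples (orange squares), with the mean of the 3 parts of each library as a bar. The parts of Chchd10 lay far apart, at 77.8 or more against 9.53 or less, whereas those of Chchd6 and Apool overlapped.

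Chchd10 had the lowest log2 fold of the 8. It encodes a small CHCHD protein of the intermembrane space that is found with CHCHD2 in one complex. The gene (ENSMUSG00000049422) lies on chromosome 10 from 75933130 to 75937747 of GRCm38, on the plus strand, with 5 merged exons in its protein-coding transcripts. Its normalized counts were 79.6, 77.8 and 78.7 in the WT parts and 9.53, 3.57 and 2.38 in the Setd5 +/- parts, and every mutant part was far under every WT part. The means of 78.7 and 5.16 gave a log2 fold of -3.93 (95% counting interval -5.33 to -2.81), a level 15.2-fold lower that left 6.56% of the WT level (2.48% to 14.2%). This rested on 285 reads in WT and 13 in Setd5 +/-, and Chchd10 passed the minimum only through its WT level. The highest mutant part weighed on the size, since without Setd5 +/- replicate 1 the log2 fold was -4.72. Of all compared genes, 0.559% had a lower log2 fold, and among the 3942 whose WT level was within 2-fold of its own the share was 1.07%.

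Part of Chchd10 is shared with a gene on the other strand. Mmp11 (ENSMUSG00000000901), a matrix metalloproteinase, runs on the minus strand from 75923222 to 75936496 and covers 155 exon bases of Chchd10, which are 10.4% of them. Its normalized counts were 60.5, 63.7 and 60.5 in WT and 57.21, 50.02 and 50.03 in Setd5 +/-, a log2 fold of -0.23 (-0.69 to 0.22). The parts of Mmp11 lay within a narrow range of each other in both libraries, while those of Chchd10 were far apart between them. Gm867, a second gene on the other strand, covers 25 exon bases of Chchd10 and held 5 reads in WT and 0 in Setd5 +/-. Whether reads were counted by strand is not given in the sources used here, so reads on the shared bases cannot be assigned to either gene.

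The closest compared genes around Chchd10 lay nearer to 0. Zfp280b (ENSMUSG00000049764), a zinc finger gene that is the nearest on the right, stood at means of 132.2 and 103.6 in WT and Setd5 +/-, a log2 fold of -0.35 (-0.67 to -0.04). Further neighbours were named after their values were seen. To the left of Mmp11, Smarcb1, a subunit of the SWI/SNF chromatin remodelling complex, was at -0.49, Mif, a cytokine gene, at -1.61, and the glutathione transferase genes Gstt1 and Gstt3 at -1.02 and -1.49. On the right, Prmt2, an arginine methyltransferase gene, was at -0.27, S100b at 1.12, Dip2a at -0.36 and Pcnt, a centrosome gene, at 0.20. The folds of these 10 neighbours therefore ran from -1.61 to 1.12, and that of Chchd10 was under all of them.

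**Figure D2:**
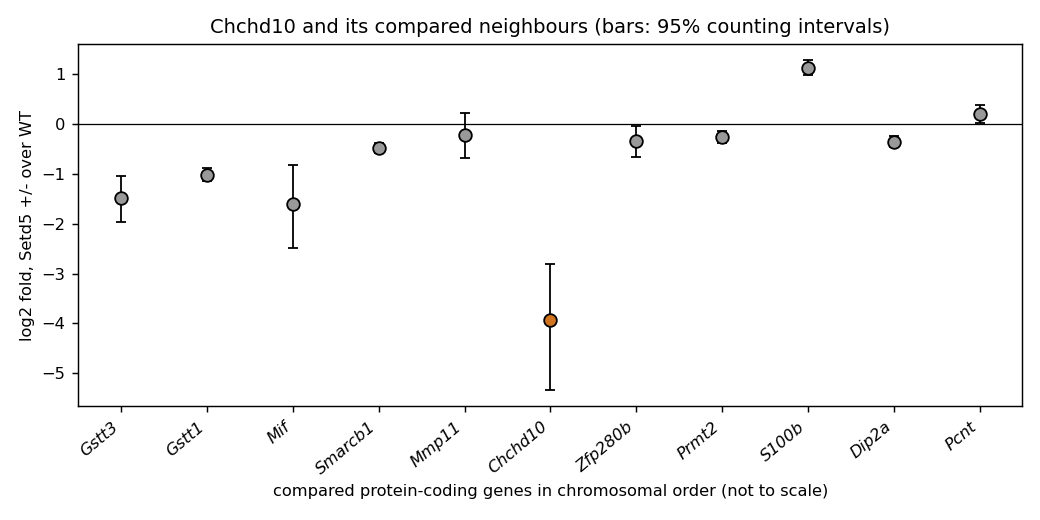
Log2 fold of Setd5 +/- over WT (vertical axis) for Chchd10 (orange) and the 5 compared protein-coding genes on each side (grey) in chromosomal order, not to scale, with 95% counting intervals as bars. Chchd10 at -3.93 was under its neighbours, which ran from -1.61 for Mif to 1.12 for S100b.

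The genes whose pattern was most like that of Chchd10, picked by the nearest log2 fold among compared genes with a WT level within 2-fold of its own, were Ucp2, Rph3a and Fam20a. Ucp2 encodes a carrier of the inner mitochondrial membrane, and its normalized counts were 87.1, 94.3 and 71.2 in WT and 7.15, 4.76 and 4.76 in Setd5 +/-, a log2 fold of -3.92 (-5.26 to -2.84). Rph3a, a synaptic vesicle gene, went from a mean of 131.7 to 8.74 (log2 fold -3.91), and Fam20a, a gene of the secretory pathway, from 46.1 to 3.18 (log2 fold -3.86). The likeness was measured over these 2 libraries alone.

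The paralogue Chchd2, which encodes a CHCHD protein of the intermembrane space that is also known in the nucleus, was higher than Chchd10 in both libraries and nearer to equal between them. It lies on chromosome 5 from 129881156 to 129887470 on the minus strand (ENSMUSG00000070493). Its normalized counts were 306, 264 and 268 in the WT parts and 206, 231 and 211 in the Setd5 +/- parts, so the parts did not overlap. The means of 279 and 216 gave a log2 fold of -0.37 (-0.59 to -0.16), under the 1.5-fold limit, and 25.6% of compared genes were lower. The ratio of Chchd10 to Chchd2, not divided by length, was 0.282 in the WT library and 0.0239 in the Setd5 +/- library. The log2 fold of Chchd10 was lower than that of Chchd2 by a difference of -3.56 (counting interval -4.71 to -2.40).

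The reads of Chchd2 are less certain than those of the other compared members. Of the 50-base stretches of its transcript, 48.4% also stand in transcripts of other genes, among them the neighbouring gene Zbed5 with 41.0% and the processed pseudogenes Gm12350 with 28.3%, Chchd2-ps with 19.3%, Gm6222 with 16.6% and Gm4995 with 8.31%. Gm12350 stood at means of 60.2 in WT and 36.5 in Setd5 +/-, Gm6222 had 61.0 and 58.0, Zbed5 had 21.0 and 21.8, Chchd2-ps had 4.41 and 4.37, and Gm4995 had 2.76 and 2.78. Gm12350 was thus lower in the mutant library, like Chchd2, and the other 4 were near equal. Phkg1 spans Chchd2 on the same strand but shares no exon base with it, and its levels were 28.4 and 24.6. How the counting divided reads between these genes was not tested.

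In the MIC60 subcomplex, Immt and Chchd3 were lower by less than 1.5-fold and the parts of Chchd6 overlapped. Immt (ENSMUSG00000052337, chromosome 6 from 71831331 to 71877388, plus strand) encodes MIC60, the core subunit that shapes crista junctions. Its normalized counts were 1746, 1743 and 1815 in the WT parts and 1312, 1298 and 1297 in the Setd5 +/- parts, with no overlap. The log2 fold was -0.44 (-0.53 to -0.35), which left 73.7% of the WT level. Gm44771, on the opposite strand, covers 185 exon bases of Immt, 6.42% of them, and stood at 43.3 and 44.1. Gm17825, a processed pseudogene inside Immt that shares no exon base with it, stood at 13.8 and 9.53.

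Chchd3 (ENSMUSG00000053768, chromosome 6 from 32790976 to 33060260, minus strand) encodes MIC19, the peripheral subunit that joins MIC60 to the outer membrane machinery. It stood at 1006, 1087 and 1079 in the WT parts and at 795, 788 and 864 in the Setd5 +/- parts, again with every mutant part lower. The log2 fold was -0.37 (-0.49 to -0.26). The ratio of Immt to Chchd3, not divided by length, was 1.67 in WT and 1.60 in Setd5 +/-. Their log2 folds differed by -0.07 with a counting interval that held 0 (-0.21 to 0.07).

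Chchd6 (ENSMUSG00000030086, chromosome 6 from 89383146 to 89595652, minus strand) encodes MIC25, a paralogue of MIC19. It stood at 103.7, 69.5 and 66.3 in the WT parts and at 84.6, 41.7 and 79.8 in the Setd5 +/- parts, and these overlapped. The log2 fold was -0.22 with an interval that held 0 (-0.62 to 0.18), and its sign depended on single parts, since it was 0.02 without WT replicate 1 and 0.04 without Setd5 +/- replicate 2. Its log2 fold was above that of Chchd3 by 0.16 (-0.24 to 0.56) and above that of Immt by 0.22 (-0.17 to 0.62), and no difference was detectable at this depth. The compared genes beside it on the chromosome were further apart. Plxna1, a semaphorin receptor gene to its left, stood at means of 753 and 1626 in WT and Setd5 +/- (log2 fold 1.11, interval 1.01 to 1.21), and Txnrd3, a thioredoxin reductase gene to its right, had 110.7 and 54.8 (log2 fold -1.01, interval -1.43 to -0.61).

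The apolipoprotein-like subunits were lower in value too, at lower depth. Apool (ENSMUSG00000025525, chromosome X from 112311334 to 112372755, plus strand) encodes MIC27, which binds the lipid cardiolipin. It stood at 181.6, 136.5 and 218.6 in the WT parts and at 93.0, 158.4 and 147.7 in the Setd5 +/- parts, so that 2 mutant parts lay above the lowest WT part. The log2 fold was -0.43 (-0.71 to -0.15), with a difference from Immt of 0.01 (-0.27 to 0.30). It was -0.26 without WT replicate 3 and -0.23 without Setd5 +/- replicate 1, with intervals that held 0, and -0.59 without WT replicate 2, where Apool passed the 1.5-fold limit.

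Apoo (ENSMUSG00000079508, chromosome X from 94367117 to 94417093, plus strand) encodes MIC26. It stood at 7.46, 9.10 and 4.97 in the WT parts and at 1.19, 2.38 and 2.38 in the Setd5 +/- parts. The parts did not overlap, but they rested on 26 and 5 reads, the mean of 4.58 was under the minimum, and the interval of the log2 fold of -1.85 held 0 (-4.60 to 0.13). Of the 50-base stretches of its transcript, 45.9% also stand in the processed pseudogene Apoo-ps (ENSMUSG00000049233, chromosome 13 from 107414144 to 107414729). Apoo-ps held far more reads than Apoo, with 262.0, 246.5 and 260.0 normalized counts in WT and 104.9, 127.4 and 106.0 in Setd5 +/-. Every mutant part was lower, and the log2 fold was -1.18 (-1.47 to -0.91). The 2 rows summed to 263 and 115, a log2 fold of -1.20 (-1.48 to -0.93), and Apoo held 2.73% of their reads in WT and 1.73% in Setd5 +/-. Bowtie2, the aligner of the study, does not split a read over an intron, and a processed pseudogene has none. Its part in how these reads fell on the 2 rows was not tested.

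Samm50, the other gene called lower, encodes the barrel protein of the SAM complex, which inserts barrel-shaped proteins into the outer membrane and binds MICOS from outside. It lies on chromosome 15 from 84192241 to 84217267 on the plus strand (ENSMUSG00000022437). Its normalized counts were 891, 889 and 994 in the WT parts and 546, 548 and 633 in the Setd5 +/- parts, with a wide gap between the libraries. The log2 fold was -0.68 (-0.81 to -0.56), 1.61-fold lower, and 12.5% of compared genes were lower still. It was below Immt by a difference of -0.24 in log2 fold (-0.40 to -0.09) and below Chchd3 by -0.31 (-0.48 to -0.14), and both counting intervals left out 0. The ratio of Samm50 to Immt, not divided by length, was accordingly 0.523 in WT and 0.442 in Setd5 +/-. Gm49513, on the same strand, covers 111 exon bases of Samm50, 2.40% of them.

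Set against all compared genes by level, the 6 genes from Chchd6 to Immt sat within the bulk of the folds while Chchd10 sat at its lower edge.

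**Figure D3:**
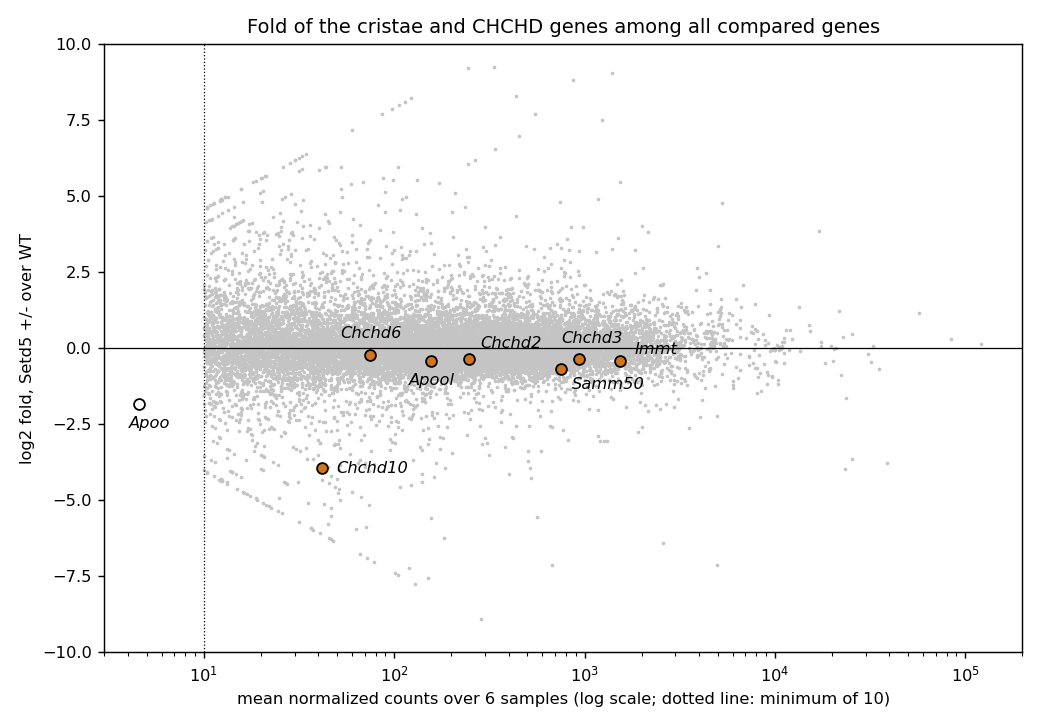
Log2 fold of Setd5 +/- over WT (vertical axis) against the mean normalized counts over the 6 samples (horizontal axis, log scale), with each compared gene in grey, the 7 compared cristae and CHCHD genes in orange and Apoo, under the minimum of 10 at the dotted line, as an open circle. Chchd10 at -3.93 stands apart from the other 6, which lie between -0.68 and -0.22.

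Levels can be set between genes only per length. Per kilobase of merged exons of protein-coding transcripts, the order was the same in both libraries, at 614 normalized counts in WT and 452 in Setd5 +/- for Immt, 435 and 336 for Chchd3, 305 and 236 for Chchd2 and 200 and 124 for Samm50. The rest of the order was Apool at 132 and 97.9, Chchd6 at 70.9 and 61.0, Chchd10 at 52.9 and 3.47 and Apoo at 5.72 and 1.58. In WT the range over the parts of each gene lay above that of the next gene. In Setd5 +/- those of Apool and Chchd6 overlapped, and so did those of Chchd10 and Apoo. Chchd10 therefore stood near the level of Chchd6 in the WT library and near that of the Apoo row, the lowest, in the Setd5 +/- library. The place of Apoo rests on its own row alone. That row held 2.73% in WT and 1.73% in Setd5 +/- of the reads of Apoo and its pseudogene Apoo-ps together. Their sum, not divided by length, was 263 normalized counts in WT and 115 in Setd5 +/-. How reads were divided between these rows was not tested, so the place of Apoo in this order is uncertain.

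The partners of MICOS, 9 genes listed by function with earlier results of these data known, were mostly lower. All 9 were compared, 8 were lower in value, and their median log2 fold was -0.61, beside -0.02 for all compared genes. At 1.5-fold 5 were called lower and none higher, beside 14.7% and 18.6% of all compared genes, and at 2-fold none was called in either direction, beside 6.28% and 10.5%. The 5 were Minos1, encoding MIC10, the other core subunit of MICOS, from 926 to 553 normalized counts (log2 fold -0.74), 2410015M20Rik, the mouse gene of the MICOS subunit MIC13, from 319 to 209 (-0.61), Dnajc11, a chaperone-like protein that binds MICOS and SAM, from 804 to 475 (-0.76), Tmem11, an inner membrane protein of cristae, from 306 to 183 (-0.74), and Mtx2. Mtx2, encoding metaxin 2 of the SAM complex, had the lowest log2 fold at -0.95 (-1.18 to -0.73), with 349, 352 and 343 in the WT parts and 181, 160 and 199 in the Setd5 +/- parts. Mtx1, encoding metaxin 1 of the same complex, had the highest at 0.29 (0.12 to 0.45), with 363, 349 and 359 against 406, 433 and 467, so the parts of these SAM genes were set apart in opposite directions. Armc1 and Slc25a46, both at -0.48, and Mtx3 at -0.05 were not called. With Samm50 at -0.68, the SAM genes thus ran from the lowest to the highest of these partners.

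A list of 21 genes held other proteins of the CX9C fold along with Gfer and Aifm1, partners of Chchd4 that are not of this fold and were not called. All 21 were compared and 17 were lower in value, with a median log2 fold of -0.46, beside -0.02 for all compared genes. Of them 8 were called lower and 1 higher, beside 14.7% and 18.6% of all compared genes, and 3 lower and none higher at 2-fold, beside 6.28% and 10.5%. Cox6b2, the testis-type form of a cytochrome c oxidase subunit, had the lowest log2 fold, -3.15 (-4.09 to -2.33), with 81.3, 104.2 and 88.6 normalized counts in WT and 16.7, 4.76 and 9.53 in Setd5 +/-. Its somatic counterpart Cox6b1 went from 774 to 395 (-0.97). Chchd7, a small CHCHD protein, was at -2.15 with means of 17.7 and 3.97, so that it passed the minimum through its WT level. Uqcrh, the hinge subunit of complex III, was at -1.03. Chchd4, encoding the import receptor that oxidises CX9C proteins and on which the members of this fold depend, went from 156 to 79.4 (-0.97), Coa6, an assembly factor of cytochrome c oxidase, was at -0.95, and the complex I subunits Ndufb7 and Ndufa8 were at -0.83 and -0.71. The single gene called higher was Chchd5, with 125.2, 112.5 and 102.7 in WT and 170.4, 185.8 and 179.9 in Setd5 +/- (log2 fold 0.66, interval 0.38 to 0.94). The genes of this list were therefore spread between Cox6b2 and Chchd5, and 12 of the 21 were not called.

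The 19 other genes that shape the inner membrane (fusion and its proteases, prohibitins, dimerisation of ATP synthase and cardiolipin synthesis) were closer to 0. Of these, 18 were compared, as Usmg5 was under the minimum, and 12 were lower and 6 higher in value, with a median log2 fold of -0.21. Phb, encoding prohibitin 1, which forms ring complexes with prohibitin 2, was the only one called lower, also at 2-fold, and none was called higher, beside 14.7% lower and 18.6% higher among all compared genes (6.28% and 10.5% at 2-fold). It stood at 192, 199 and 191 in the WT parts and 81.0, 47.6 and 112.0 in the Setd5 +/- parts, a log2 fold of -1.28 (-1.61 to -0.95), but 47.3% of the 50-base stretches of its transcript also stand in other genes. Phb2, its partner, was at -0.45. Opa1, the fusion dynamin of the inner membrane that narrows crista junctions, was at -0.25 (-0.35 to -0.14), with 1144, 1147 and 1034 against 917, 949 and 932. The proteases that cut Opa1 differed among themselves, with Oma1 at -0.41 and Yme1l1 at 0.28. Spg7, a subunit of the matrix AAA protease, had the highest log2 fold, 0.32 (0.22 to 0.42), from a mean of 1005 to 1256.

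**Figure D4:**
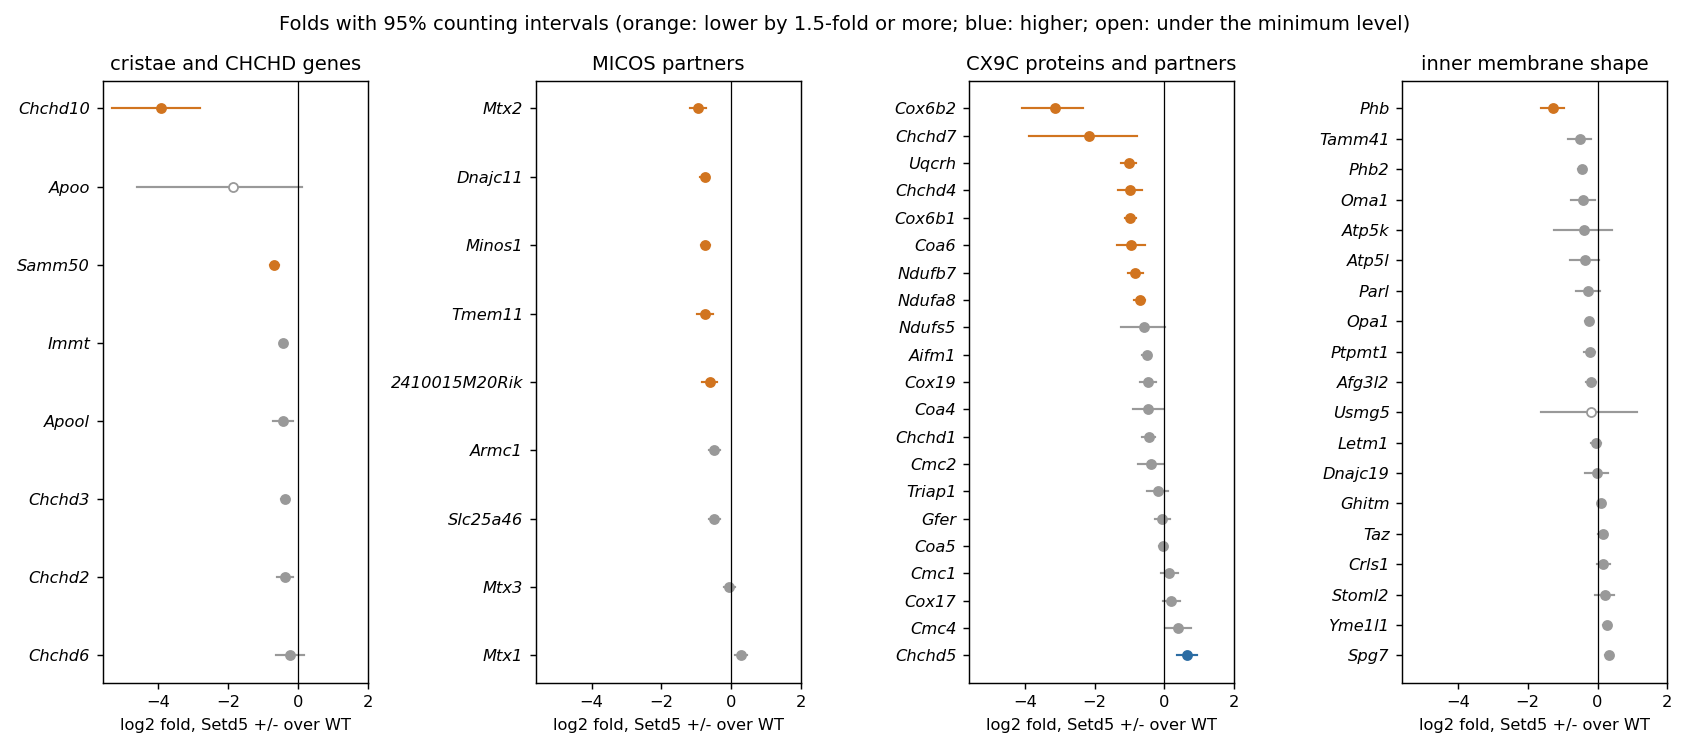
Log2 fold of Setd5 +/- over WT (horizontal axis) with 95% counting intervals for the 8 cristae and CHCHD genes and the 3 lists of related genes (rows, lowest fold at the top). Orange marks genes called lower, blue the 1 called higher, grey the genes not called and open circles the genes under the minimum level, and most points lie left of 0 in the first 3 panels while those of the inner membrane shape genes lie on both sides.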

How the data were processed

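Total RNA had been made into TruSeq libraries and sequenced from both ends. The 3 WT and 3 Setd5 +/- samples were read here as parts of 1 library per genotype. Per the labels and methods, the authors trimmed reads with Trimmomatic, aligned them to mm10 with Bowtie2 and used DESeq2. The deposited table holds counts divided by size factors, and its values had lost decimal points, so its unit in the file is no standard one. The program that counted reads and its use of strand are not given in the sources used here. The deposited log2 fold changes, their errors and p-values were not used.

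Points were restored from the value of 1 read in each sample, and the restored mean equalled the deposited mean in all 52438 genes with values, although that mean placed a point in 1116. The chi-square of read pairs per degree of freedom was 0.961 to 0.986 within a genotype (6 pairs) and 34.9 to 35.0 between genotypes (9 pairs), so the 3 samples were counted as 1 library. With 1 library per genotype, no count model, block or p-value was used. The log2 fold is the ratio of mean normalized counts (a library under 3 reads was set to 3 reads), with an exact binomial (Clopper-Pearson) 95% interval on read pairs, since 1.95 (WT) and 1.94 (Setd5 +/-) was the variance over the mean of reads. Intervals of a difference between 2 genes add the counting errors of both. The procedures were tested on simulated data that held counting noise alone, so this says nothing of differences between cultures or clones. Positions and transcripts are GENCODE's on GRCm38 (mm10), and k-mers of 50 bases were searched on both strands. Python 3.11.15, scipy 1.17.1, numpy 2.4.6 and pandas 2.3.3 were used.

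The members and lists were chosen with earlier results of these data known. Named genes were all members, Setd5, the lowest and highest log2 fold in each list, the 3 genes nearest to Chchd10's fold at a like WT level, the nearest compared genes beside Chchd10 and Chchd6, and genes overlapping a member or its pseudogenes. Any other gene named, apart from markers and lists whose calls are given in full, was chosen after its values were seen. Alternatives were other scalings, an added count of 1, other minimums, 2-fold in place of 1.5-fold, intervals on single reads and each sample left out.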

Additional observations from a re-analysis of the deposited data

How the results depend on the processing

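No paired analysis was possible because the results come from no test and the 3 samples of a genotype are parts of 1 library. No fold of the 8 genes turned its direction under another scaling, with 1 normalized count added or with intervals on single reads; the scalings shifted all log2 folds by -0.04 (total reads) and -0.01 (upper quartile). At 2-fold in place of 1.5-fold, the genes called lower numbered 1 of the cristae and CHCHD genes (2 before), 0 MICOS partners (5), 3 genes of the CX9C list (8) and 1022 of all compared genes (2383), and the genes called higher numbered 0 of the CX9C list (1) and 1707 of all (3023). With a minimum mean of 50, 1 of the cristae and CHCHD genes was called lower, because Chchd10 with its mean of 41.9 was no longer compared. With each sample left out in turn, log2 folds ranged from -4.72 to -3.59 for Chchd10, -0.42 to -0.30 for Chchd2, -0.45 to -0.42 for Immt, -0.42 to -0.35 for Chchd3, -0.39 to 0.04 for Chchd6, -0.59 to -0.23 for Apool, -2.06 to -1.59 for Apoo and -0.76 to -0.63 for Samm50. Calls ranged from 2 to 3 of the members (3 without WT replicate 2, which adds Apool), from 4 to 6 MICOS partners lower, from 7 to 9 genes of the CX9C list lower with 1 higher throughout, and from 2317 to 2382 of all genes lower and 2934 to 3032 higher. Leaving out a part of 1 library tests counting error alone. Depth limits Apoo, with 26 and 5 reads, and Chchd10 in the mutant library, with 13 reads.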
